A study of Mus musculus with 6 samples.

Results

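Triglyceride synthesis and lipid droplet storage in the liver were followed through 10 genes, namely Gpam, Agpat2, Lpin1, Lpin2, Dgat1, Dgat2, Mogat1, Cidec, Plin2 and Cd36. Every probe set whose only symbol in the array annotation was one of these genes was taken, which gave 9 genes with 16 probe sets out of 12393 genes and 22626 tested probe sets. Agpat2 has no such probe set and is not analysed here. Transcript abundance was measured in liver on 3 arrays from DUhTP mice and 3 arrays from DUC mice. DUhTP mice carry no engineered allele and were bred over many generations for high treadmill performance, while DUC mice are the unselected control line. Both lines go back to one cross of outbred and inbred stocks and are kept non-inbred, and all mice were untrained males of 70 days. The study's methods describe each array as a pool of mice and the sample labels describe a single mouse, so each value is that of an array and p-values measure only the spread between arrays.

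Liver cells build triglyceride by adding fatty acids to glycerol-3-phosphate one at a time. Gpam, an acyltransferase of the outer mitochondrial membrane, adds the first fatty acid, Agpat2 adds the next, and the lipins remove the phosphate from phosphatidic acid to leave diacylglycerol. Dgat1 and Dgat2 add the last fatty acid, Mogat1 makes diacylglycerol from monoacylglycerol instead, and the product is stored in droplets coated by proteins such as Plin2 and Cidec. In mouse liver Lpin1 transcripts are known to be under the control of fasting signals and glucocorticoids, and lipin 1 also acts in the nucleus as a partner of transcription factors. Cd36 is a fatty acid transporter of the cell surface.

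The 5 probe sets of Lpin1 and Lpin2 were the only members with a difference of more than 0.5 on the log2 scale, and all 5 were lower in DUhTP livers by value. Lpin1 was 8.55 and 8.75-fold lower on its probe sets, and Lpin2 was 2.22 to 2.77-fold lower, each with every DUhTP array below every DUC array. A probe set was called at an adjusted p under 0.05 from limma's moderated unpaired test on log2 intensities, with the Benjamini Hochberg correction across the whole array. Without an added constant 1 of the 16 member probe sets was called, Lpin2 1460290_at, and this was a call of lower abundance. Across the array 2.41% of probe sets were called in either direction and 1.05% were called lower. With 16 added to every intensity before the log, a step that damps differences among dim probe sets, all 5 lipin probe sets were called and no other member was, beside 8.62% of all probe sets. The 11 probe sets of the other 7 genes had log2 fold changes between -0.37 and 0.24 with a median of 0.01, and the lowest adjusted p among them was 0.204.

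The start regions of the 2 lipin genes are printed because these genes carry the difference. Windows from 250 bases before to 50 bases after a gene's start came from RefSeq (GRCm38.p6), and 8 of the 10 genes had at least 1 window, 12 windows in all. Lpin1 lies on the minus strand of chromosome 12 with its window at chr12:16610917-16611216, and Lpin2 lies on the plus strand of chromosome 17 with windows at chr17:71183282-71183581, at chr17:71183728-71184027 and at chr17:71204404-71204703, of which the first and the last are shown. Capitals mark matches on either strand to the E-box CACGTG and to the short cyclic AMP response element TGACG (read as CGTCA on the opposite strand). They also mark, on either strand, TGTTCT, which is only a part of the full glucocorticoid receptor motif.
Lpin1: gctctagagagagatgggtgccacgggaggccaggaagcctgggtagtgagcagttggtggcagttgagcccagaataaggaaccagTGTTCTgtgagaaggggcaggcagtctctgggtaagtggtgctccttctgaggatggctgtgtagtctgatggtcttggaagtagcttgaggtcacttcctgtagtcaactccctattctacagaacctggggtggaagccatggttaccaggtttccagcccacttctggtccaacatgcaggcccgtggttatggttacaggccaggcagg
Lpin2, first window: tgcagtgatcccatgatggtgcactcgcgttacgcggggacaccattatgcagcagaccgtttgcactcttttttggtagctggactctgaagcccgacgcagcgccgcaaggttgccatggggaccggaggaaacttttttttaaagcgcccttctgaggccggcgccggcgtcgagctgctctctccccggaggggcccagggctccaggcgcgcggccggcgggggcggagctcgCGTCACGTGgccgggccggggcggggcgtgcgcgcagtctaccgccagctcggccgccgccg
Lpin2, last window: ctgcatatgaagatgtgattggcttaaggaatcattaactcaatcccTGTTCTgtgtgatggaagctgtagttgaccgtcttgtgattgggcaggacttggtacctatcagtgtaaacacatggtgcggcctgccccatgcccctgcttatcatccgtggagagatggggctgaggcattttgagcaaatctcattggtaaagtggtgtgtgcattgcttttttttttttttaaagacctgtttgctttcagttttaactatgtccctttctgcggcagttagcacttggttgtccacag

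The printed Lpin1 window has a GC content of 55.3%, against 52.7% for the median of all 32851 windows in the table. It has 1 partial glucocorticoid receptor motif, TGTTCT, starting 163 bases before the start. It also has 1 partial nuclear receptor motif, AGGTCA, starting 74 bases before the start, which is left in lower case. The first Lpin2 window has a higher GC content, 68.7%, and carries an E-box starting 9 bases before the start. That E-box overlaps a short cyclic AMP response element that begins 12 bases before the start, and the shared stretch is printed as 1 run of capitals. The last Lpin2 window has a GC content of 45.0% and a partial glucocorticoid receptor motif, TGTTCT, starting 203 bases before the start. The window not shown has a GC content of 80.7% and none of the marked letters. Of all windows, 7.15% hold CACGTG, 20.8% hold TGACG, 19.0% hold TGTTCT and 16.3% hold AGGTCA on either strand. The full cyclic AMP response element TGACGTCA, which contains the short one and is present in 1.79% of all windows, and the sterol response element TCACNCCAC, present in 1.24%, had no match in any window of the 8 genes. These matches describe letters only, and binding was not measured.

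Lpin1 encodes lipin 1, a phosphatidate phosphatase that supplies diacylglycerol. On probe set 1418288_at its intensity was 95.3, 455 and 316 in DUhTP livers, against 1619, 2357 and 2243 in DUC livers. The highest DUhTP array thus lay well below the lowest DUC array, and DUhTP replicate 1 stood below the other DUhTP arrays. The means were 289 ± 181 in DUhTP and 2073 ± 397 in DUC (SD, n = 3 each), and the log2 fold change was -3.10 ± 0.59 (SE), with a 95% interval of -4.54 to -1.65. Its adjusted p from limma was 0.0599, just outside the threshold, and 0.00280 with 16 added (log2 fold change -2.99).

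The second Lpin1 probe set, 1426516_a_at, gave 51.4, 357 and 259 in DUhTP livers, against 1157, 1785 and 1542 in DUC livers. The order of the arrays was the same within each line as on 1418288_at, with replicate 1 lowest in both lines and replicate 2 highest. The log2 fold change was -3.13 ± 0.74 (SE, 95% interval -4.94 to -1.32) and the limma adjusted p was 0.0917, or 0.00728 with 16 added. Among the 11313 brighter probe sets, those with a mean at or above the median, the Lpin1 probe sets held the 9th and 10th lowest log2 fold changes.

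Lpin2 encodes lipin 2, a lipin prominent in liver, with the same enzymatic step. Probe set 1460290_at, the one called without a constant, had 118, 177 and 123 in DUhTP livers, against 406, 421 and 322 in DUC livers. No array overlapped between the lines, and the spread within a line was small beside the gap. Means were 139.6 ± 32.7 in DUhTP and 383 ± 52.9 in DUC (SD, n = 3 each), with a log2 fold change of -1.47 ± 0.20 (SE, 95% interval -1.97 to -0.97) and an adjusted p of 0.0320 from limma, or 0.00108 with 16 added.

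The brightest Lpin2 probe set, 1452836_at, had 442, 722 and 598 in DUhTP livers, against 1089, 1497 and 1329 in DUC livers. Its log2 fold change was -1.17 ± 0.22 (SE) and its limma adjusted p was 0.0610, or 0.00515 with 16 added. Probe set 1452837_at had 146, 231 and 202 in DUhTP livers, against 368, 539 and 378 in DUC livers. It gave -1.15 ± 0.24 (SE) with a limma adjusted p of 0.0705, or 0.00742 with 16 added. On all 3 probe sets of Lpin2 replicate 1 was the lowest DUhTP array and replicate 2 the highest, as on both Lpin1 probe sets.

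**Figure D1:**
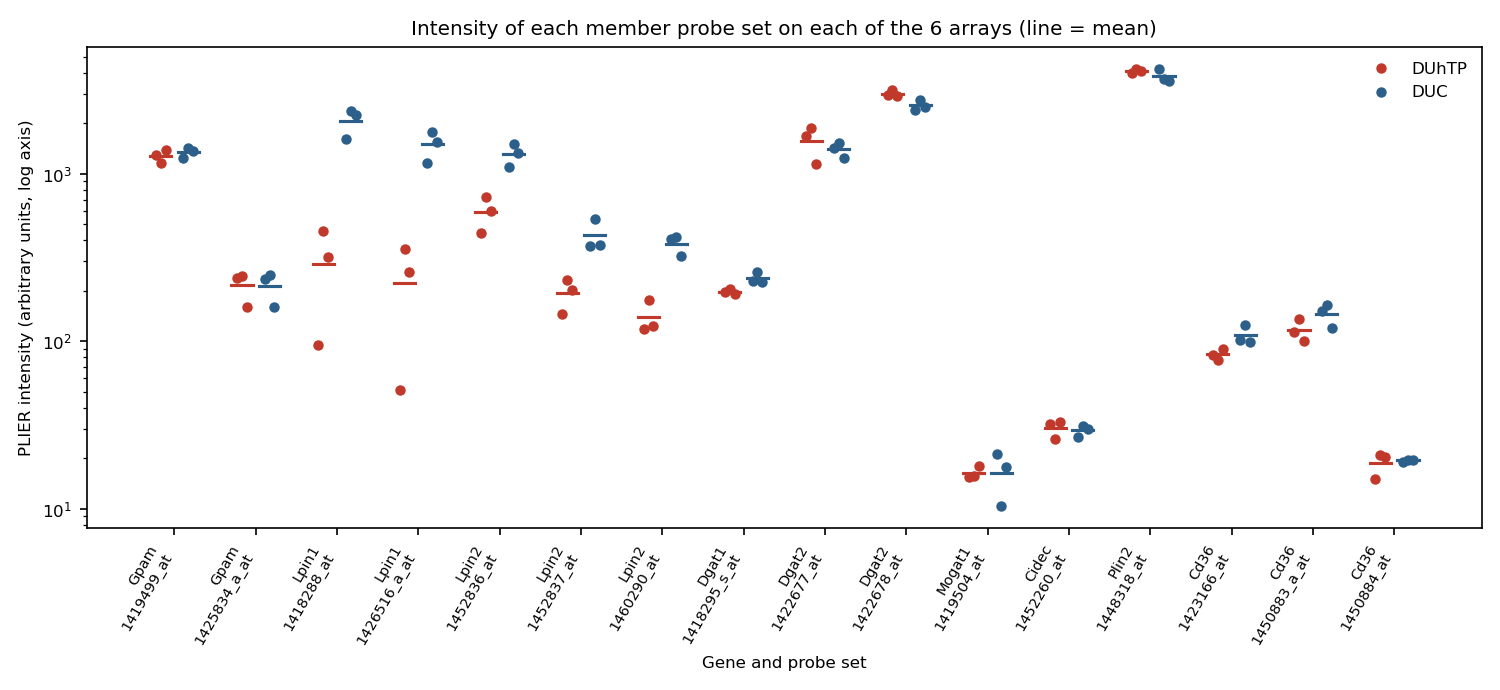
PLIER intensity (arbitrary units, log axis) of each of the 16 member probe sets, with a point for each DUhTP and DUC array and a short line at the mean of each line. The 5 lipin probe sets show a clear gap with all DUhTP points below all DUC points, and the points of most other probe sets overlap.

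The difference was larger for Lpin1 than for Lpin2 by value. The log2 ratio of an Lpin1 to an Lpin2 probe set was taken within each array, which shows unequal change and sets no level of one gene against the other. Over the 6 pairings of probe sets the difference of this log2 ratio, DUhTP minus DUC, was -1.98 to -1.62. On the brightest pair it was -2.21, -0.67 and -0.92 in DUhTP arrays, against 0.57, 0.65 and 0.76 in DUC arrays. In each pairing all DUhTP arrays lay below all DUC arrays, and each exact two-sided permutation test gave p = 0.1, or 0.1 after Benjamini Hochberg adjustment over the 6 pairings, the smallest value 3 against 3 arrays allow. This ratio was chosen after the values were seen.

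**Figure D2:**
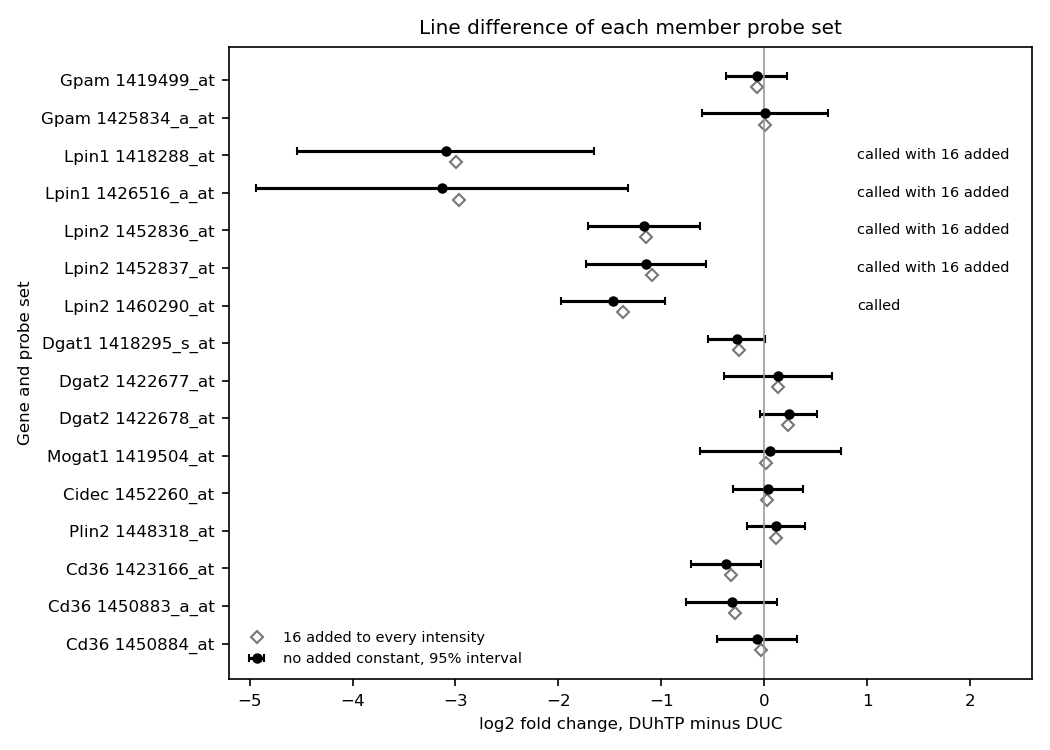
Log2 fold change (DUhTP minus DUC) of each member probe set, as filled points with 95% intervals without an added constant and as open diamonds with 16 added to every intensity. The lipin probe sets lie between -3.13 and -1.15, and the other 11 lie between -0.37 and 0.24.

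Without a constant the lipin calls changed when single arrays were left out. Lpin2 1460290_at kept its call only without DUhTP replicate 2 (limma adjusted p = 0.0424), and its adjusted p reached 0.132 at most, without DUC replicate 2. Lpin1 1418288_at was called only when DUhTP replicate 1 was left out (0.0473), and ranged to 0.189 otherwise. Fewer probe sets of the whole array passed in these smaller fits as well, 1 to 122 in place of 546. The log2 fold changes kept their sign in every such fit, at -3.67 to -2.27 for the Lpin1 and -1.66 to -0.97 for the Lpin2 probe sets. With 16 added all 5 lipin probe sets were called in each of the 6 fits, with limma adjusted p values up to 0.0453. These 6 fits with 16 added called 771 to 1591 probe sets of the whole array, in place of 1951.

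**Figure D3:**
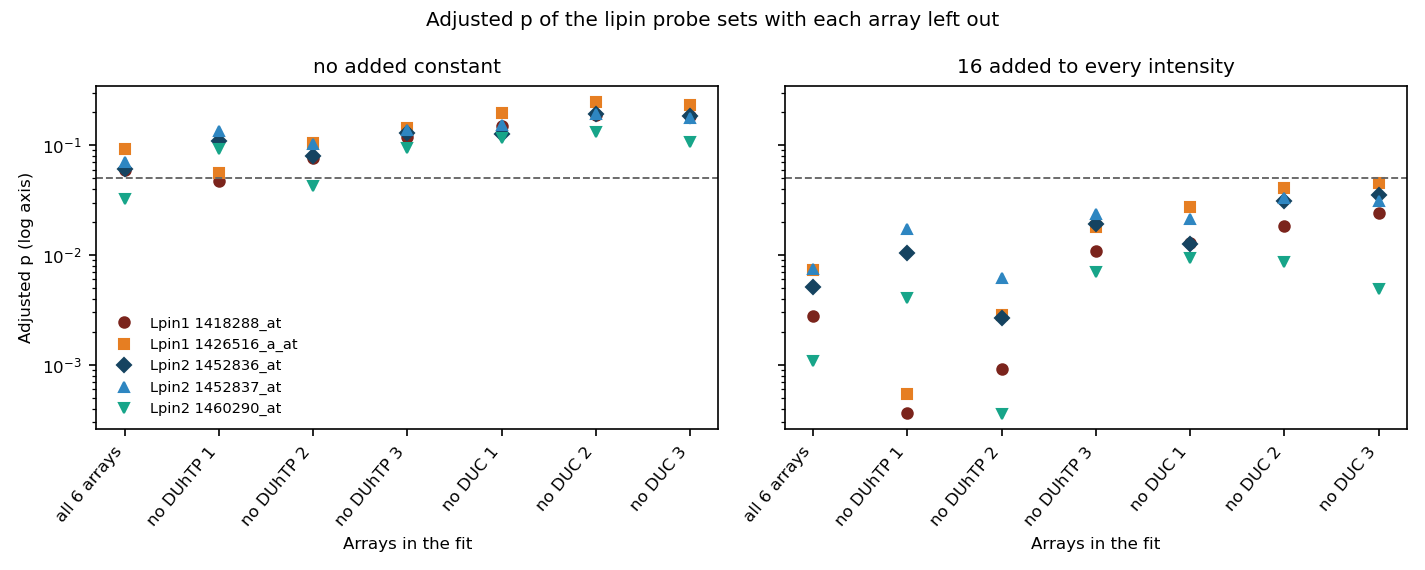
Adjusted p (log axis) of the 5 lipin probe sets with all 6 arrays and with each array left out, without an added constant on the left and with 16 added on the right. The dashed line is the threshold of 0.05. On the left the lowest values without 1 array are 0.0424 and 0.0473, and on the right every value lies under the line.

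For Gpam, which starts the pathway, the lines differed by less than the spread between arrays. Probe set 1419499_at had 1299, 1165 and 1376 in DUhTP livers, against 1242, 1426 and 1367 in DUC livers. These arrays overlapped and the log2 fold change was -0.07 ± 0.12 (SE, 95% interval -0.37 to 0.22; limma adjusted p = 0.782). Probe set 1425834_a_at had 239, 246 and 161 in DUhTP livers, against 234, 249 and 160.2 in DUC livers, with a log2 fold change of 0.01 ± 0.25 (SE, 95% interval -0.61 to 0.62). In both lines the third array was the low one on this probe set.

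Dgat1 and Dgat2, the enzymes of the last step, had log2 fold changes of opposite sign and neither passed the test. Dgat1 on 1418295_s_at had 197, 204 and 190.1 in DUhTP livers, against 228, 260.3 and 226 in DUC livers. All DUhTP arrays lay below all DUC arrays, but the shift was small, at -0.27 ± 0.11 (SE, 95% interval -0.54 to 0.01; limma adjusted p = 0.244). Dgat2 on its brighter probe set 1422678_at had 2946, 3165 and 2905 in DUhTP livers, against 2400.4, 2767 and 2498 in DUC livers. Here all DUhTP arrays lay above all DUC arrays, with a log2 fold change of 0.24 ± 0.11 (SE, 95% interval -0.04 to 0.51; limma adjusted p = 0.296). Its other probe set, 1422677_at, had 1678, 1862 and 1141 in DUhTP livers, against 1431, 1523 and 1244 in DUC livers. The DUhTP arrays spanned those of DUC, and the log2 fold change was 0.13 ± 0.21 (SE).

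Mogat1 was dim, with 15.5, 15.8 and 18.0 in DUhTP livers, against 21.2, 10.3 and 17.7 in DUC livers on 1419504_at. All of these lie below the median of every array (53.1 to 57.0), and the interval of the log2 fold change was wide, at -0.63 to 0.74 around 0.06. The droplet protein Cidec, which helps droplets fuse, was dim as well. It had 32.0, 26.0 and 32.9 in DUhTP livers, against 26.9, 31.4 and 30.1 in DUC livers on 1452260_at. The lines overlapped, with a log2 fold change of 0.04 ± 0.14 (SE, 95% interval -0.31 to 0.38).

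Plin2, the main perilipin coat of liver droplets, had 4015, 4195 and 4126 in DUhTP livers, against 4222, 3649 and 3557 in DUC livers on 1448318_at. The DUhTP arrays lay within the range of the DUC arrays. Means were 4112 ± 90.7 in DUhTP and 3809 ± 360.0 in DUC (SD, n = 3 each), and the log2 fold change was 0.11 ± 0.11 (SE, 95% interval -0.17 to 0.40; limma adjusted p = 0.621). The intervals of Gpam 1419499_at, Dgat2 1422678_at and Plin2 lie wholly above -0.5 on the log2 scale, so differences of the size seen for the lipins lie outside them.

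Cd36, the fatty acid transporter, was lower by value on all 3 of its probe sets without passing the test. On 1423166_at it had 83.2, 77.0 and 90.2 in DUhTP livers, against 101, 125 and 99.4 in DUC livers, a gap between all arrays of the lines. The log2 fold change was -0.37 ± 0.14 (SE, 95% interval -0.71 to -0.03; limma adjusted p = 0.204, unadjusted 0.0368). Probe set 1450883_a_at had 114, 135 and 100.3 in DUhTP livers, against 152, 164 and 119 in DUC livers. The lines overlapped there, at a log2 fold change of -0.32 ± 0.18 (SE). The dim probe set 1450884_at had 15.0, 20.9 and 20.3 in DUhTP livers, against 19.1, 19.7 and 19.6 in DUC livers, with -0.07 ± 0.16 (SE).

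Over all 16 member probe sets, 10 were lower and 6 higher by sign. In 7 of them all DUhTP arrays lay below all DUC arrays, beside 15.8% of the probe sets of the whole array. In 1 of them, Dgat2 1422678_at, all DUhTP arrays lay above all DUC arrays, beside 13.6% of the whole array. The 5 lipin probe sets, Dgat1 and Cd36 1423166_at made up those 7. The probe sets of a gene share its RNA and are no replicates.

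The other genes of the pathway came from 5 lists of 63 genes, of which 52 had a probe set of their own. Of these, 2 were called higher and 3 lower in DUhTP livers, with a median log2 fold change of 0.01 for the brightest probe sets, against 0.00 for all genes. Genes with a called probe set made up 3.32% of all genes. The 5 called genes were Fitm1, Plin5, Pnpla2, Lpl and Srebf1. Without any 1 array 0 or 1 of the 52 genes was called, Lpl without DUhTP replicate 1 and Pnpla2 without DUhTP replicate 2, in fits that called 1 to 122 probe sets of the whole array in place of 546. The log2 fold changes in these fits stayed between -1.93 and -1.60 for Lpl 1415904_at, -1.34 and -1.21 for Pnpla2, -1.22 and -1.02 for Plin5, 1.40 and 1.68 for Srebf1, and 1.21 and 1.47 for Fitm1. With 16 added these 5 genes were called in each of the 6 fits. In all, 12 of the 52 genes were called with 16 added, beside 11.3% of all genes, and 7 to 11 without any 1 array. The fits without 1 array and with 16 added called 771 to 1591 probe sets of the whole array, in place of 1951. Genes called only with 16 added, Lpin3 and Pparg are named below although the naming rule does not cover them, after their values were seen.

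Among the droplet proteins 1 of 11 genes was called higher and 1 lower, beside 3.32% of all genes called in either direction. An unadjusted p under 0.05 was found for 5 of the 11, beside 27.4% of all genes. Fitm1, an endoplasmic reticulum protein that helps droplets form, had 243, 290.2 and 206 in DUhTP livers, against 111, 79.4 and 99.9 in DUC livers (log2 fold change 1.35 ± 0.19 SE, limma adjusted p = 0.0324). Every DUhTP array was above every DUC array. Plin5, a perilipin that tethers droplets to mitochondria, had 411, 344 and 310.1 in DUhTP livers, against 725, 743 and 818 in DUC livers (-1.11 ± 0.14 SE, limma adjusted p = 0.0282). The Plin5 interval was -1.46 to -0.76 while that of Plin2 included 0, and the difference between the 2 perilipins was not tested. Of the bright members not called, Cideb had a log2 fold change of 0.27 on its own probe set (limma adjusted p = 0.196), G0s2, an inhibitor of the lipase Pnpla2, had 0.29 (0.632) and Hsd17b11 had 0.04 on its brightest (0.872). Bscl2, the seipin of nascent droplets, was called higher only with 16 added, on 1420632_a_at (limma adjusted p = 0.0449).

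Among the genes of triglyceride breakdown 2 of 7 were called, both lower, beside 3.32% of all genes called in either direction. An unadjusted p under 0.05 was found for 3 of the 7, beside 27.4% of all genes. Pnpla2, the lipase that takes the first fatty acid off stored triglyceride, had 396, 439 and 395 in DUhTP livers, against 949.5, 948 and 1114 in DUC livers on 1428143_a_at. The arrays of each line lay close together and the lines were far apart, at -1.29 ± 0.12 (SE, limma adjusted p = 0.0147), while its dim probe set 1428591_at gave -0.04 ± 0.17 (SE). Lpl, the lipase that acts on circulating lipoproteins, had 73.8, 114 and 116 in DUhTP livers, against 412, 314 and 330.0 in DUC livers on 1415904_at. It was lower on both of its probe sets, at -1.81 ± 0.22 and -1.28 ± 0.20 (SE, limma adjusted p = 0.0257 and 0.0408). Mgll and Abhd5 were not called on any probe set. The lysosomal lipase Lipa was called higher only with 16 added, on 1423140_at (limma adjusted p = 0.0270). Its brightest probe set 1450872_s_at had a log2 fold change of 0.27 and 1423141_at had -0.03, neither called with or without 16 added.

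Among the other enzymes of glycerolipid synthesis 0 of 11 genes were called by limma without a constant, 2 had an unadjusted p under 0.05, beside 27.4% of all genes, and 1 was called with 16 added, beside 11.3% of all genes. This was Gpat4, an acyltransferase of the same step as Gpam. On 1450776_at it had 464, 477 and 343 in DUhTP livers, against 653, 634 and 571 in DUC livers (-0.55 ± 0.16 SE, limma adjusted p = 0.145, or 0.0482 with 16 added). Its dim probe set 1422841_at gave -0.07. Lpin3, the remaining lipin, was dim, with 31.9, 16.8 and 21.5 in DUhTP livers, against 17.5, 19.2 and 23.0 in DUC livers. These values lie below the median of every array, and whether they stand above background was not tested. Gpd1, Plpp3 and Agpat3 were bright, and the log2 fold changes on their brightest probe sets were 0.17, 0.09 and -0.19, none called.

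Of the genes of fatty acid uptake and activation 0 of 11 were called by limma without a constant and 3 had an unadjusted p under 0.05, near the 27.4% of all genes. With 16 added Acsl5, which activates long-chain fatty acids, was called higher (2297, 2662 and 2638 in DUhTP livers, against 1900.3, 1876 and 1716 in DUC livers; limma adjusted p = 0.0348). Fabp4, a fatty acid binding protein, was called lower with 16 added on 1417023_a_at and 1451263_a_at, while its other 2 probe sets had positive log2 fold changes. Fabp1, Slc27a2 and Slc27a5, the brightest of the list, had log2 fold changes of 0.25, -0.17 and 0.08 on their brightest probe sets.

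Of 12 regulators of lipid storage 1 was called, beside 3.32% of all genes, and 4 had an unadjusted p under 0.05, beside 27.4% of all genes. Srebf1, the transcription factor gene of fatty acid synthesis, had 662, 450.1 and 464 in DUhTP livers, against 158, 164 and 202 in DUC livers. It was 2.98-fold higher, at 1.57 ± 0.20 (SE, limma adjusted p = 0.0263). With 16 added Srebf1 was 2.81-fold higher (limma adjusted p = 0.000705). The latter fold change equals the one the study reports for this transcript. Whether the study's own values rest on an added constant was not tested. Cebpb and Insig2 were called lower only with 16 added. Insig2, which holds the precursor of the Srebf1 product in the endoplasmic reticulum, had log2 fold changes of -0.77, -0.74 and -0.34 on its probe sets, the last on the brightest. Ppara had -0.23 and Cebpa -0.08, neither called, and Pparg, a regulator of lipid storage, was dim at 19.0, 29.1 and 32.5 in DUhTP livers, against 45.1, 36.9 and 41.9 in DUC livers (limma adjusted p = 0.182).

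**Figure D4:**
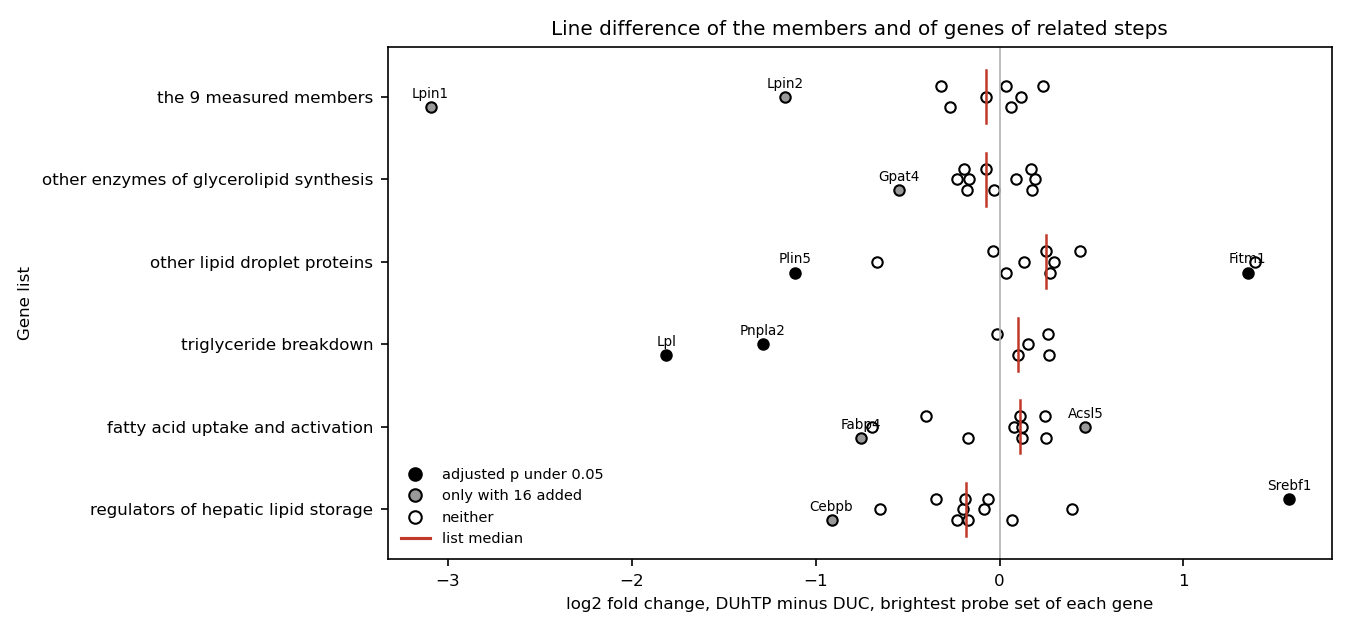
Log2 fold change (DUhTP minus DUC) of the brightest probe set of each gene, for the 9 members and for 5 lists of related genes, with list medians as red lines. Black points passed an adjusted p under 0.05 on that probe set, grey points only with 16 added, and open points neither. Lpin2, called on another probe set, is therefore grey. Bscl2, Lipa and Insig2, called with 16 added on other probe sets, are open. Lpin1 lies farthest left at -3.10, and Srebf1 farthest right at 1.57.

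The 3 genes whose array profiles lay nearest to Lpin2 1460290_at were Sdc4, a heparan sulfate proteoglycan, Tbc1d8 and Lbp, the binding protein of bacterial lipopolysaccharide. Likeness was the root mean square difference of centred log2 intensities over the 6 arrays among 7072 genes, and it was 0.18, 0.18 and 0.20 on the log2 scale. Sdc4 had 1124, 1420.3 and 1431 in DUhTP livers, against 4023, 3803 and 3561 in DUC livers. The nearest to Lpin1 1418288_at lay farther away, Exosc1 at 0.45, Rgs16 at 0.58 and Igfbp1, which binds insulin-like growth factors, at 0.71. Igfbp1 had 1130.3, 1890.1 and 1530.3 in DUhTP livers, against 5465, 6477 and 6480.1 in DUC livers, and shared with Lpin1 the order of the DUhTP arrays. Lpin1 was added to this search after its values were seen.

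Hepatocyte markers were bright on every array, and their sum over 6 genes ranged from 58140 to 60159 in DUhTP livers and from 64461 to 66024 in DUC livers. Tat, an amino acid catabolic enzyme of hepatocytes, was called lower (log2 fold change -0.88, limma adjusted p = 0.0370), Hnf4a had -0.41 to -0.66 on its probe sets (called lower with 16 added, lowest limma adjusted p = 0.00948) and Cps1 had -0.33. These 3 of the 6 markers lay below in all DUhTP arrays on their brightest probe sets, while Ttr lay above in all DUhTP arrays on its brightest. Of the probe sets of the whole array, 15.8% lay below and 13.6% above in this way. Alb, Ttr and Apoa1 had log2 fold changes between -0.03 and 0.09. Without Tat the sum stayed lower, at 53892 to 56674 in DUhTP and 57912 to 58196 in DUC. In bulk liver, fewer cells of a type and less RNA per cell cannot be told apart. The sum of 8 exocrine pancreas markers was 3944, 983 and 2484 in DUhTP livers, against 4389.5, 8527 and 6438 in DUC livers, so all DUhTP arrays lay below all DUC arrays as for the lipins. Without Ctrb1, the gene with the largest difference of means, the lines stayed apart, at 947 to 3484 in DUhTP and 3635 to 6769 in DUC. For 6 of these 8 genes all DUhTP arrays lay below all DUC arrays, beside 15.8% of the probe sets of the whole array. None of the 8 was at 0 on any array, which held for every probe set. By limma 0 of 8 were called, while 5 had an unadjusted p under 0.05, beside 27.4% of all genes. With 16 added 4 were called, beside 11.3% of all genes. Ctrb1, the precursor of a digestive protease, had 460.1, 36.0 and 186 in DUhTP livers, against 754, 1757 and 1318 in DUC livers. Within DUC the sum and Lpin1 1418288_at had the same order of arrays, while within DUhTP the sum was highest in replicate 1, where all 5 lipin probe sets were lowest. The part of pancreatic RNA in the lipin result was not tested.

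**Figure D5:**
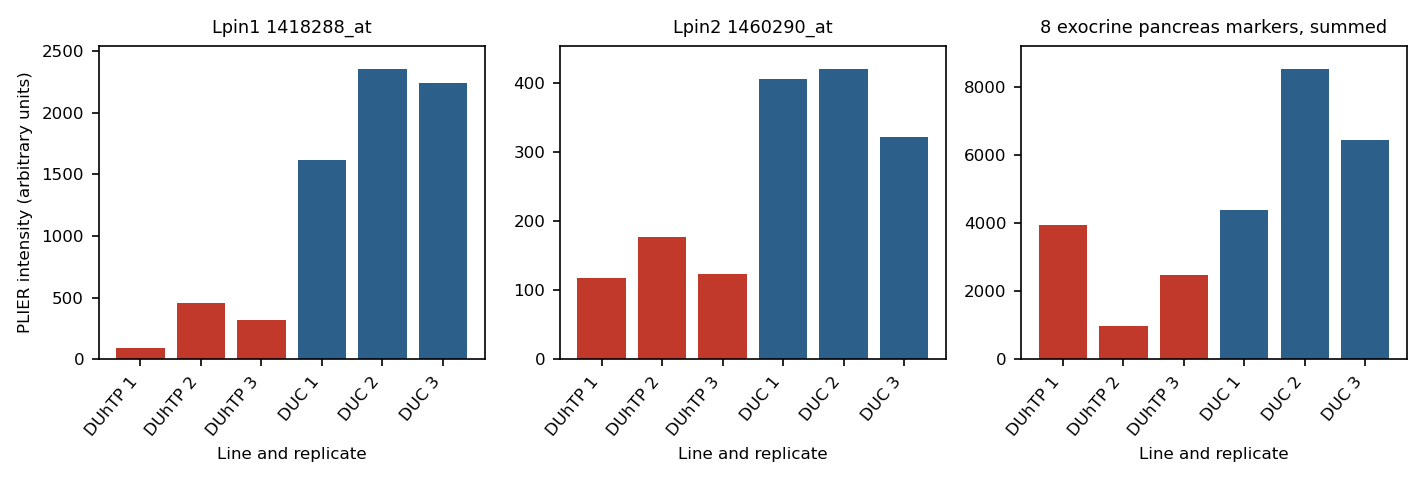
Intensity (arbitrary units, bars from 0) of Lpin1 1418288_at, Lpin2 1460290_at and the sum of 8 exocrine pancreas markers on each DUhTP and DUC array. All 3 are lower in every DUhTP array than in every DUC array, and the orders within DUhTP differ, with DUhTP replicate 1 lowest for both lipins and highest for the pancreas sum.

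The sums of 4 other marker lists were higher in all DUhTP arrays than in all DUC arrays. No marker was at 0 on any array, which held for every probe set. None of these separations of the sums held once the gene of the list with the largest difference of means was left out. For 8 Kupffer cell and macrophage markers the sum ranged from 3319.7 to 4208 in DUhTP and from 2418 to 3252 in DUC. Clec4f was called higher, and 5 of the 8 genes lay above in all DUhTP arrays, beside 13.6% of the probe sets of the whole array. With 16 added Adgre1, Cd68, Clec4f and Csf1r were called higher and Marco lower, beside 11.3% of all genes called in either direction. An unadjusted p under 0.05 was found for 6 of the 8, beside 27.4% of all genes. Marco had 29.4, 36.6 and 31.0 in DUhTP livers, against 47.3, 46.8 and 52.8 in DUC livers (limma adjusted p = 0.0434 with 16 added). Cd5l had a log2 fold change of -0.01. Without Csf1r, the gene with the largest difference of means, the sums overlapped, at 2429 to 3097 in DUhTP and 1857 to 2580.5 in DUC. Adgre1, Cd68, Clec4f and Vsig4 also lay above in all DUhTP arrays, Marco lay below, and Cd5l and Lyz2 overlapped. The median log2 fold change of the list was 0.48, against 0.00 for all genes.

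For 7 adipocyte markers the sum ranged from 786 to 962 in DUhTP and from 724 to 749.5 in DUC, and Thrsp carried this gap. Without Thrsp the direction turned, to 302 to 329 in DUhTP and 382 to 393 in DUC. Retn and Fabp4 lay below in all DUhTP arrays, Thrsp alone lay above, and the defining Adipoq and Lep were dim, between 2.03 and 27.1 on all arrays. The sum of 7 endothelial markers ranged from 1804.5 to 1923 in DUhTP and from 1603 to 1715 in DUC. Of the 7 genes 3 lay above in all DUhTP arrays, beside 13.6% of the probe sets of the whole array. Lyve1 and Tek had log2 fold changes of -0.55 and -0.08, and without Stab2 the sums overlapped, at 1148 to 1264 in DUhTP and 1145.5 to 1238 in DUC. The sum of 5 stellate cell markers ranged from 786 to 883 in DUhTP and from 633 to 669 in DUC, and only Col3a1, which was called higher, lay above in all DUhTP arrays. Without it the sums were 533 to 576 in DUhTP and 489 to 543 in DUC and overlapped, and the median log2 fold change of the list was 0.02. Leaving out these genes was chosen after the values were seen. Their part in the results above was not tested.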

How the data were processed

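Liver RNA of 3 DUhTP and 3 DUC arrays was measured on Affymetrix mouse genome arrays. Per the labels and the study's methods, the authors applied global scaling in GCOS 1.1.1, moved the data to Array Assist and summarized probes with PLIER; the deposited values are linear PLIER intensities in arbitrary units. The PLIER version, an added constant and the genome build are not given in the sources used here. After 64 control probe sets were left out of 22690, intensities were logged to base 2 without a constant, as all were above 0, and 22626 probe sets were compared with lmFit and eBayes in limma 3.58.1 (R 4.3.3), unpaired, with Benjamini Hochberg adjustment over all of them. Log2 fold changes are DUhTP minus DUC. Symbols came from the array annotation: 20380 probe sets have 1 symbol, 691 several and 1555 none, and 20351 of the 20380 were matched by gene number to RefSeq with 0 symbols changed.

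A gene was counted as called when at least 1 of its probe sets was, and in list medians it stands by its brightest. Named genes were every member with all probe sets, from each list the called genes and up to 3 others of the highest mean, and for a called member the 3 genes of nearest profile. Members and lists were chosen with earlier results of these data known. The alternatives were 16 added, quantile normalization, the dimmest 33.3% left out, array weights, limma-trend, the replicate number as a block, probe sets ending in _s_at or _x_at left out, each array left out in turn (also with 16 added), a fold change over 2, and the probe set with the smallest p. The fit was tested on simulated data. Array medians were 53.1 to 57.0, and the lowest correlation of log2 intensities was 0.959 among DUhTP arrays, 0.974 among DUC arrays and 0.950 between the lines. With 3 arrays per line, the number of arrays limits the precision. The study's qRT-PCR and serum data were not analysed here.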

Additional observations from a re-analysis of the deposited data

How the results depend on the processing

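Of the 16 member probe sets, 1 was called without a constant and 1 with quantile normalization, with probe sets ending in _s_at or _x_at left out, or with a fold change over 2 required. The count was 5 with 16 added, 5 with the dimmest 33.3% left out, 5 with limma-trend and 3 with array weights, and it was 0 to 1 without any 1 array. Member genes called numbered 1 without a constant, 2 under each of those 4 settings and 0 to 1 without any 1 array. Genes of the related lists called numbered 5 without a constant, 12 with 16 added and 0 to 1 without any 1 array. Over the whole array 546 probe sets were called, 1951 with 16 added, 1854 without the dimmest 33.3%, 2350 with limma-trend, 690 with array weights, 684 after quantile normalization, 379 without the _s_at and _x_at probe sets and 1 to 122 without any 1 array. The cause of these shifts was not tested. The 5 lipin probe sets were lower in DUhTP under every setting run. Values near 0 changed sign without single arrays: the log2 fold change ranged from -0.19 to 0.20 for Gpam 1425834_a_at, from -0.011 to 0.34 for Dgat2 1422677_at, from -0.24 to 0.27 for Mogat1, from -0.028 to 0.14 for Cidec and from -0.16 to 0.082 for Cd36 1450884_at, none of them called. The median log2 fold change of the member genes was -0.07 with the brightest probe sets and -0.07 with those of the smallest p.

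The replicate numbers in the labels did not pair the arrays: the deviations of same-numbered arrays correlated at 0.0034, 0.0048 and 0.067, and 2 of 6 arrays correlated best with their own number. With the replicate number as a block 0 member probe sets, 0 member genes and 0 probe sets of the whole array were called in limma, while with 16 added and the block 5 member probe sets, 2 member genes and 1800 probe sets were. Both lines had only 3 arrays, and dim probe sets such as Mogat1, Cidec and Cd36 1450884_at lie where the added constant weighs most.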
